A study of Mus musculus with 12 samples.

Results

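The genes described here encode the pore-forming and auxiliary subunits of voltage-gated calcium channels (Cacna, Cacnb and Cacng genes) and sodium channels (Scn genes), and the hyperpolarization-activated cation channels (Hcn genes). The members are the protein-coding genes of GENCODE M21 with such symbols, and no measured value decides whether a gene is a member. The rule gave 44 genes of the 52638 entries of the count table, and 41 of them are reported here: 10 calcium channel alpha1, 4 alpha2delta, 4 beta and 8 gamma subunits, 9 sodium channel alpha and 3 beta subunits, and 3 HCN channels. All counts and medians of channel genes below are over these 41. RNA came from the hypothalamus of adult mice in which LepRb-Cre, on both alleles, turned on a ribosomal protein L10a tagged with green fluorescent protein (R26-GFP:L10a, on both alleles) wherever LepRb, the long form of the leptin receptor, is expressed. These mice are the control genotype (Ctrl), and Stat3KO mice carried in addition 2 floxed Stat3 alleles, so that the controls have the Cre and tag alleles as well. STAT3 is a transcription factor that LepRb activates. RNA on the tagged ribosomes was pulled down (bead-bound RNA) and the RNA left behind was kept (supernatant). Each genotype had 3 pools of 5 to 8 mice and each pool gave both fractions, so that 4 groups of 3 libraries were compared. The labels do not give the age of the mice beyond adult, and since Cre follows LepRb, tag and deletion are not limited to 1 cell type.

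Calcium channels admit calcium on depolarization and so couple firing to transmitter release and gene regulation. Their alpha1 subunit forms the pore and sets the current type, and beta and alpha2delta subunits bring the pore to the membrane and tune its gating. Sodium channel alpha subunits carry the upstroke of the action potential, and the beta subunits modify their gating and placement. HCN channels open on hyperpolarization, carry a depolarizing current and contribute to rhythmic firing. Leptin acts through LepRb neurons of the hypothalamus, whose firing rests on such channels as in other neurons.

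Libraries held 20743217 to 41829907 counts, and all means below are over n = 3 pools. Levels are given as CPM, read counts relative to library size, scaled with the trimmed mean of M values over all 12 libraries. Replicate 1 of every group stood apart: between it and the other replicates of its group the chi-square statistic per gene was 25.1 to 75.5, against 5.91 to 16 between replicates 2 and 3. The tag transcript averaged 133 CPM on the beads and 10.7 CPM in the supernatant of Ctrl, and 132 and 12.3 CPM in Stat3KO. Stat3 itself was at 144, 179 and 181 CPM in Ctrl and 116, 149 and 163 CPM in Stat3KO bead-bound RNA. These groups overlapped, and a count over the whole gene cannot tell whether its floxed part was deleted.

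Of the 41 genes, 35 reached a mean of at least 1 CPM in 1 or more groups. The 6 genes below that level in every group, called not expressed here, were Cacna1f, known as a retinal calcium channel, and Cacng1 and Cacng6, gamma subunits known from skeletal and cardiac muscle. The others were Scn4a, the sodium channel of skeletal muscle, and Scn10a and Scn11a, sodium channels of peripheral sensory neurons. Cacna1s, the calcium channel of skeletal muscle, was close to the limit at 1.88, 0.818 and 2.09 CPM in Ctrl beads. Levels between genes are compared per kilobase of exon, as CPM per kb. In Ctrl bead-bound RNA the highest of the genes reported was Scn2b, a sodium channel beta subunit, at 72.9 ± 5.09 CPM per kb (SD), followed by Cacnb3, a calcium channel beta subunit, at 49.6 ± 8.63 CPM per kb. Auxiliary subunits filled the first 4 ranks, and Hcn2, a pore-forming gene, was at rank 5. The calcium and sodium channel pores stood at rank 12 and below, with some auxiliary subunits among and under them. The highest sodium channel pore was Scn2a at 12.6 ± 5.15 CPM per kb and the highest calcium channel pore was Cacna1b, the N-type channel, at 8.29 ± 1.42 CPM per kb. Hcn2 led the HCN channels at 35.6 ± 10.4, Cacng7 the gamma subunits at 37.5 ± 8.39 and Cacna2d1 the alpha2delta subunits at 12.3 ± 4.49 CPM per kb. In Ctrl supernatant other genes led several classes: the T-type channel Cacna1g was the first alpha1 gene at 13.9 ± 1.33 CPM per kb and Scn1a the first sodium channel pore at 16.3 ± 3.78 CPM per kb. Cacng7 moved from rank 3 of the 41 genes on the beads to rank 1 in supernatant, and Scn4b from rank 11 to rank 4.

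**Figure D1:**
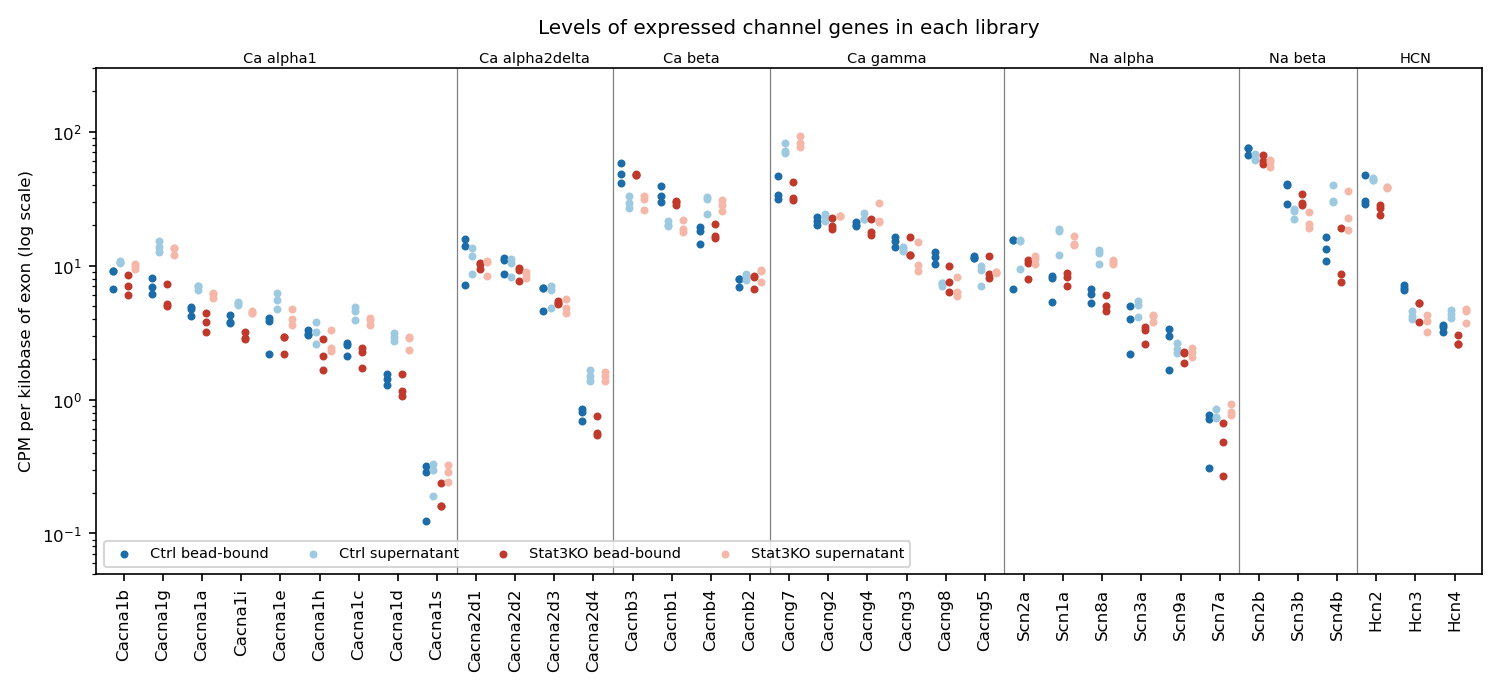
Levels of the 35 expressed genes in CPM per kilobase of exon (log axis), 1 point per library, coloured by group and ordered within each class by the Ctrl bead-bound mean. On the beads Scn2b is the highest, and Cacna1s, Scn7a and Cacna2d4 are the lowest.

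Replicates of the expressed genes varied about as much as those of other genes. The median coefficient of variation over the 35 genes was 14.1% in Ctrl beads and 15.1% in Stat3KO beads, where all genes of at least 1 CPM had 14.8% and 15.4%. In supernatant it was 9.53% in Ctrl and 9.66% in Stat3KO, against 10.3% and 11.6% over all genes. The least variable gene was Cacng2 in Stat3KO supernatant at 0.400%, and the most variable was Scn4b in Stat3KO beads at 53.4%. In Ctrl beads replicate 1 was the lowest of its group for 21 of the 35 genes (43.3% of all genes), and in Ctrl supernatant for 21 (43.3%). The Stat3KO groups differed from this: replicate 1 was the lowest for 16 of the 35 on the beads (40.6% of all genes) and for 10 in supernatant (38.9%), where it was the highest for 17 (42.4%). In Scn2a, a sodium channel pore of axons and dendrites, replicate 1 was the lowest in both Ctrl groups and on Stat3KO beads, and the middle value in Stat3KO supernatant. Scn2a was at 85, 199 and 199 CPM in Ctrl beads and 119.8, 197 and 196 CPM in Ctrl supernatant, replicate 1 first. The Stat3KO levels were 102, 139.8 and 134 CPM on the beads and 144, 149.6 and 132 CPM in supernatant. Cacng4 and Cacng7, both gamma subunits, ran the other way, with replicate 1 highest in all 4 groups.

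Bead-bound and supernatant RNA were compared within each genotype. This asks whether a transcript makes up a larger or smaller share of the RNA on tagged ribosomes than of the RNA left behind. Most calcium channel pores and 2 of the main sodium channel pores were lower on the beads, and 2 calcium channel beta subunits with 1 sodium channel beta subunit were higher. In Ctrl 5 of the 39 tested genes were higher and 14 lower on the beads (edgeR quasi-likelihood test, adjusted p under 0.05), where 20.7% of all tested genes were higher and 21.2% lower. In Stat3KO 4 of 38 were higher and 17 lower, where all tested genes gave 14.7% and 17.3%. In both genotypes 3 of the 38 genes tested in both were higher (7.89%, against 13.3% of all genes) and 14 were lower (36.8%, against 14.4%), and 0 were called in opposite directions. With replicates 2 and 3 alone 8 were higher and 16 lower in Ctrl (26.4% and 26% of all genes), and 4 higher and 19 lower in Stat3KO (20.8% and 23%). The 2 comparisons do not share libraries. The median log2 fold change of the tested genes was -0.21 in Ctrl and -0.41 in Stat3KO, against -0.01 and -0.02 over all genes. The 17 genes called in both genotypes moved the same way in 6 of 6 pools. They were picked by the tests on these same libraries, so this agreement is no separate support. In bulk RNA fewer cells of a type, less RNA per cell and less of the RNA on ribosomes cannot be told apart.

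**Figure D2:**
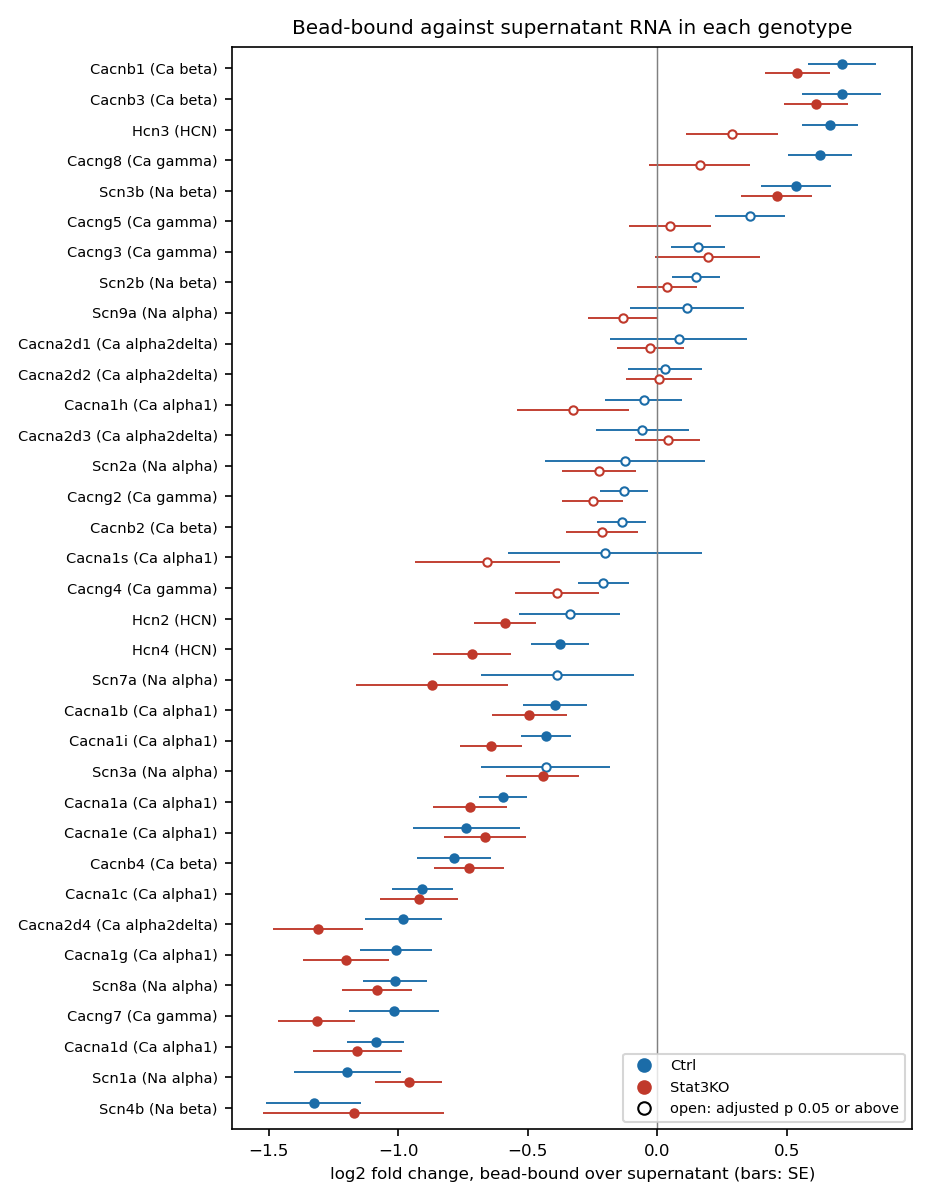
Log2 fold change of bead-bound over supernatant RNA with its SE for the 35 expressed genes, in Ctrl (blue) and Stat3KO (red), with filled points past the test. Calcium channel alpha1 genes lie at or left of 0 in both genotypes, while Cacnb1, Cacnb3 and Scn3b lie right of it.

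Of the 10 calcium channel alpha1 genes, 7 were lower on the beads in both genotypes and 0 were higher. Over all genes tested in both, 14.4% were lower and 13.3% higher in both. Cacna1f was not tested in Stat3KO. All 7 genes fall in the longest class of exon length described below. In that class 43.6% of all genes were lower in Ctrl and 35.3% in Stat3KO. Cacna1d (ENSMUSG00000015968; chromosome 14, 30039939 to 30491455) encodes an L-type channel that opens at modest depolarization and takes part in pacemaking. It was at 16.2, 19.5 and 17.9 CPM on the beads of Ctrl pools 1, 2 and 3 and at 39.5, 37.3 and 34.8 CPM in their supernatant. Stat3KO pools gave 13.3, 19.4 and 14.7 CPM on the beads and 37, 36.1 and 29.6 CPM in supernatant. All bead libraries lay below all supernatant libraries, with log2 fold changes of -1.09 (SE 0.110, adjusted p = 0.00034) in Ctrl and -1.16 (SE 0.172, adjusted p = 0.00172) in Stat3KO. Cacna1g (ENSMUSG00000020866; chromosome 11, 94408391 to 94474198) encodes a T-type channel known for burst firing, strongly so in the thalamus. Its bead levels were 82.1, 70.1 and 62.1 CPM in Ctrl and 51, 74.1 and 52.2 CPM in Stat3KO, and its supernatant levels 155, 139.6 and 128 CPM in Ctrl and 121, 136 and 138 CPM in Stat3KO. The groups did not overlap, and the log2 fold changes were -1.01 (SE 0.139, adjusted p = 0.00113) and -1.20 (SE 0.167, adjusted p = 0.00128). Of 6 thalamus markers, 5 were lower and 1 was higher on the beads in each genotype (median -0.76 in Ctrl and -0.93 in Stat3KO). Their part in the result was not tested.

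Cacna1c (ENSMUSG00000051331; chromosome 6, 118587240 to 119196418), the other brain L-type channel, was at 44.6, 55.8 and 53.7 CPM on Ctrl beads against 83, 103 and 96.7 CPM in supernatant, and at 36.2, 51 and 47.8 against 76.8, 86.8 and 83.6 CPM in Stat3KO. It was lower with no overlap in both genotypes, with log2 fold changes of -0.91 (SE 0.119, adjusted p = 0.000956) and -0.92 (SE 0.151, adjusted p = 0.00259). Cacna1e (ENSMUSG00000004110; chromosome 1, 154390731 to 154884501), the R-type channel, was at 55.5, 97.1 and 103 CPM on Ctrl beads and 121, 156 and 139 CPM in supernatant. Stat3KO values were 54.8, 73.8 and 74.2 on the beads against 120.3, 101 and 90.4 CPM. Replicate 1 had the lowest bead level in both genotypes, and the groups were still apart, with -0.74 (SE 0.207, adjusted p = 0.0212) in Ctrl and -0.67 (SE 0.158, adjusted p = 0.0123) in Stat3KO. The Ctrl call was lost without Ctrl supernatant replicate 2 (adjusted p = 0.0839) or 3 (adjusted p = 0.0658). With all libraries and the pool of mice as a block it was kept (-0.77, adjusted p = 0.000158).

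Cacna1a and Cacna1b are the channels of presynaptic release sites. Cacna1a (ENSMUSG00000034656; chromosome 8, 84388440 to 84640246), the P/Q-type channel, was at 48.4, 55.8 and 54.3 CPM on Ctrl beads and 74.5, 80.0 and 80.3 CPM in supernatant, and at 36.4, 50.5 and 43.1 on the beads against 71.2, 70.6 and 65.7 CPM in Stat3KO. Its log2 fold changes were -0.60 (SE 0.0938, adjusted p = 0.002) and -0.72 (SE 0.143, adjusted p = 0.00585). Cacna1b (ENSMUSG00000004113; chromosome 2, 24603887 to 24763152), the N-type channel and the most abundant alpha1 gene per kilobase on the beads, was at 66.1, 90.3 and 90.8 CPM there in Ctrl and 106, 108 and 103 CPM in supernatant. In Stat3KO it was at 60.0, 84.6 and 70.5 on the beads against 98.6, 101 and 93.4 CPM. The groups were apart in both genotypes, pool 1 had the largest difference in each, and the log2 fold changes of -0.39 (SE 0.123, adjusted p = 0.0323) and -0.49 (SE 0.144, adjusted p = 0.0277) were the smallest of the alpha1 genes called. The Cacna1b calls were lost in Ctrl without supernatant replicate 1, 2 or 3 or bead replicate 2 (adjusted p = 0.0578 to 0.110), and in Stat3KO without supernatant replicate 1, 2 or 3 or bead replicate 3 (adjusted p = 0.0650 to 0.114). With all libraries and the pool as a block alone they were kept (-0.40, adjusted p = 0.00289 in Ctrl, and -0.51, adjusted p = 0.000824 in Stat3KO). Cacna1i (ENSMUSG00000022416; chromosome 15, 80287238 to 80398279), the third T-type gene, was at 37.1, 42.3 and 37.6 CPM on Ctrl beads against 50.2, 51.5 and 52.6 CPM in supernatant, and at 28.3, 31.7 and 28.2 against 45.3, 43.9 and 43.9 CPM in Stat3KO, with -0.43 (SE 0.0957, adjusted p = 0.00828) and -0.64 (SE 0.119, adjusted p = 0.00444). The T-type gene Cacna1h was not called in either genotype (-0.05 and -0.33), and neither was Cacna1s (-0.20 and -0.66). The Cacna1i call in Ctrl was lost without Ctrl supernatant replicate 3 (adjusted p = 0.0527). With all libraries and the pool as a block alone it was kept (-0.43, adjusted p = 0.000871). With an allowance for exon length and pool described below, 5 alpha1 genes were lower in both genotypes: Cacna1b was no longer lower in either, nor Cacna1i in Ctrl. In that fit Cacna1h was higher in Ctrl (0.33, adjusted p = 0.0108).

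The calcium channel beta subunits, cytoplasmic partners that bind the alpha1 pore, split. Cacnb3 (ENSMUSG00000003352; chromosome 15, 98630840 to 98644529) was at 236, 194 and 167 CPM on Ctrl beads and 132, 117 and 109 CPM in supernatant, and at 190.3, 191 and 193 on the beads against 125, 104 and 133 CPM in Stat3KO. All bead libraries lay above all supernatant libraries of their genotype, with 0.71 (SE 0.152, adjusted p = 0.00689) in Ctrl and 0.61 (SE 0.125, adjusted p = 0.00663) in Stat3KO. Cacnb1 (ENSMUSG00000020882; chromosome 11, 98001508 to 98023034) had bead levels of 179.5, 149.7 and 135 CPM in Ctrl and 128, 135 and 138 CPM in Stat3KO, above supernatant levels of 97.4, 91.4 and 89.3 CPM in Ctrl and 81.5, 84.8 and 99.9 CPM in Stat3KO. Its log2 fold changes were 0.71 (SE 0.131, adjusted p = 0.00371) and 0.54 (SE 0.124, adjusted p = 0.0107), and the Stat3KO call was lost without Stat3KO supernatant replicate 2 (adjusted p = 0.0594). With all libraries and the pool as a block that call was kept (0.55, adjusted p = 0.000221). Cacnb4 (ENSMUSG00000017412; chromosome 2, 52428320 to 52676831) went the other way, at 130.5, 162 and 174 CPM on Ctrl beads against 217, 290.3 and 281 CPM in supernatant and 149.7, 144 and 183 against 231, 255 and 277 CPM in Stat3KO. It differed by -0.79 (SE 0.142, adjusted p = 0.0035) and -0.73 (SE 0.134, adjusted p = 0.00437). Exons of A430018G15Rik on the other strand cover 16% of its exon length, and that gene was at 0.415 CPM in Ctrl beads and 0.615 CPM in Ctrl supernatant. Cacnb2 was not called (-0.14 in Ctrl and -0.21 in Stat3KO). Among the 4 beta genes, then, 2 were higher, 1 was lower and 1 was not called in each genotype.

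The alpha2delta subunits are extracellular proteins that raise the number of channels at the membrane and bind gabapentin-type drugs in the case of Cacna2d1 and Cacna2d2. Of the 4 genes only Cacna2d4, the least abundant, was called. Cacna2d4 (ENSMUSG00000041460; chromosome 6, 119236526 to 119352407) was at 7.61, 6.55 and 8.00 CPM on Ctrl beads and 15.8, 12.9 and 14.2 CPM in supernatant, and at 5.37, 5.19 and 7.14 on the beads against 13, 14.1 and 15.3 CPM in Stat3KO, a difference of -0.98 (SE 0.148, adjusted p = 0.00166) and -1.31 (SE 0.173, adjusted p = 0.000989). Cacna2d1 (ENSMUSG00000040118; chromosome 5, 15934691 to 16374511), the most abundant of the class, was at 89.6, 173 and 195 CPM on Ctrl beads and 107, 147 and 168 CPM in supernatant. The Stat3KO levels were 128, 129.6 and 118 on the beads against 133, 132 and 105 CPM, and the fractions overlapped in both genotypes. Cacna2d1, Cacna2d2 and Cacna2d3 had log2 fold changes of 0.08, 0.03 and -0.06 in Ctrl and -0.03, 0.01 and 0.04 in Stat3KO. The 95% interval for Cacna2d1 ran from -0.52 to 0.69 in Ctrl. With the pool as a block its SE there fell from 0.264 to 0.0877, and it was again not called (0.04, adjusted p = 0.697). With length offsets added to the block it was higher in both genotypes, as described below.

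Gamma subunits are tetraspan membrane proteins, and several (Cacng2, Cacng3, Cacng4 and Cacng8, and in another way Cacng5 and Cacng7) are better known as partners of AMPA-type glutamate receptors than of calcium channels. Cacng7 (ENSMUSG00000069806; chromosome 7, 3332955 to 3368221) was at 115, 82.9 and 76.9 CPM on Ctrl beads and 203, 168 and 176 CPM in supernatant, and at 102, 75.3 and 78.2 on the beads against 228, 187 and 199.9 CPM in Stat3KO. No bead library reached a supernatant library of its genotype, and the log2 fold changes were -1.02 (SE 0.173, adjusted p = 0.00278) and -1.32 (SE 0.148, adjusted p = 0.000457). Cacng8, which lies next to it on chromosome 7 (3390683 to 3415648), was higher on the beads in Ctrl, by 0.63 (SE 0.123, adjusted p = 0.0049), at 29.7, 27.3 and 24.1 against 17.4, 17.5 and 16.6 CPM. In Stat3KO Cacng8 was at 23.2, 17.8 and 14.8 against 19.4, 13.9 and 14.9 CPM and did not pass (0.16 (SE 0.196, adjusted p = 0.547)), and its difference between genotypes did not pass either (interaction -0.45, SE 0.241, adjusted p = 1.0). Cacng6 passed in Stat3KO (1.43) from 6 to 24 counts per library and is among the genes not expressed here. With the pool block and length offsets it did not pass (1.24, adjusted p = 0.0570). Cacng2, Cacng3, Cacng4 and Cacng5 were not called in either genotype, with log2 fold changes of -0.13, 0.16, -0.21 and 0.36 in Ctrl. With the pool of mice as a block Cacng4 was lower in both genotypes (-0.21, adjusted p = 0.0168 in Ctrl, and -0.38, adjusted p = 0.00295 in Stat3KO), Cacng5 was higher in Ctrl (0.37, adjusted p = 0.0127) and Cacng2 lower in Stat3KO (-0.25, adjusted p = 0.0378).

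Among the sodium channel pores, Scn1a and Scn8a were lower on the beads in both genotypes. Scn1a (ENSMUSG00000064329; chromosome 2, 66270778 to 66440840), the channel known as Nav1.1 and for its role in fast-spiking inhibitory neurons, was at 59.8, 90.7 and 92.9 CPM on Ctrl beads and 133, 210.2 and 202 CPM in supernatant. Stat3KO pools gave 78.5, 98.3 and 91.9 on the beads against 159, 185 and 162 CPM. The fractions were apart in every pool, with -1.20 (SE 0.206, adjusted p = 0.00289) and -0.96 (SE 0.131, adjusted p = 0.00115). Scn8a (ENSMUSG00000023033; chromosome 15, 100869858 to 101045938), Nav1.6 of the axon initial segment, was at 82.6, 97.1 and 106 CPM on Ctrl beads and 163, 205 and 197 CPM in supernatant, and at 71.9, 95.5 and 78.2 on the beads against 168, 174 and 162 CPM in Stat3KO. Its log2 fold changes were -1.01 (SE 0.124, adjusted p = 0.000718) and -1.08 (SE 0.136, adjusted p = 0.000751). Scn2a, whose levels are given above, differed by -0.12 in Ctrl and -0.23 in Stat3KO and was not called. Scn9a was not called either (0.11 in Ctrl and -0.13 in Stat3KO). Scn3a, a pore most abundant in development, was lower in Stat3KO (-0.44 (SE 0.140, adjusted p = 0.0378)) and at -0.43 (SE 0.249, adjusted p = 0.193) in Ctrl, where the fit with the pool as a block gave -0.48 (adjusted p = 0.00911). With length offsets added to that block Scn3a was called in neither genotype (-0.12, adjusted p = 0.411 in Ctrl, and -0.09, adjusted p = 0.463 in Stat3KO). Scn7a, a sodium-sensing channel that is not voltage-gated in the usual way, passed in Stat3KO (-0.87, adjusted p = 0.0476) and was at -0.39 in Ctrl, where it did not pass.

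Sodium channel beta subunits showed the strongest decrease of the expressed genes reported in Ctrl. They also held 1 of the 3 genes that were higher in both genotypes. Scn4b (ENSMUSG00000046480; chromosome 9, 45138395 to 45154152), a subunit tied to resurgent current and abundant in striatum, was at 81.5, 66.7 and 54.2 CPM on Ctrl beads and 152, 199 and 148 CPM in supernatant, a difference of -1.33 (SE 0.183, adjusted p = 0.00114). Stat3KO values were 94.6, 37.9 and 43.4 CPM on the beads and 178, 91.6 and 113 CPM in supernatant. Replicate 1 was higher than the others in both fractions there and the fractions overlapped across pools, although the bead level was the lower one within each pool (-1.17 (SE 0.348, adjusted p = 0.0296)). That call was lost with DESeq2 (adjusted p = 0.0804) and when Stat3KO supernatant replicate 1 or 3 or bead replicate 2 or 3 was left out (adjusted p = 0.0642 to 0.101). With all libraries and the pool as a block the call was kept (-1.24, adjusted p = 4.07e-07). Summed markers of striatum and cortex were also highest in replicate 1 of Stat3KO, in both fractions, and their part in the result was not tested. Scn3b (ENSMUSG00000049281; chromosome 9, 40269217 to 40291618) was at 158, 219 and 223 CPM on Ctrl beads and 122, 139 and 144 CPM in supernatant, and at 187, 156 and 161 on the beads against 138, 111 and 105 CPM in Stat3KO. It was higher on the beads by 0.54 (SE 0.136, adjusted p = 0.0138) and 0.46 (SE 0.137, adjusted p = 0.0297). In Ctrl the call was lost without supernatant replicate 1 or 2 or bead replicate 2 (adjusted p = 0.0574 to 0.0604), and in Stat3KO without supernatant replicate 2 or 3 or bead replicate 3 (adjusted p = 0.0543 to 0.119) and with library totals in place of the scaling (adjusted p = 0.0703). With all libraries and the pool as a block both calls were kept (0.53, adjusted p = 9.5e-05 in Ctrl, and 0.47, adjusted p = 0.000548 in Stat3KO). Scn2b (ENSMUSG00000070304; chromosome 9, 45117782 to 45130070) was at 312, 351 and 354 CPM on Ctrl beads and 289, 295 and 315 CPM in supernatant, and at 315, 269 and 280.2 on the beads against 284, 253 and 275 CPM in Stat3KO. The fractions overlapped in both genotypes and Scn2b was not called, with 0.15 (95% interval -0.06 to 0.36) in Ctrl and 0.04 in Stat3KO.

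The HCN channels did not move as 1 group. Hcn4 (ENSMUSG00000032338; chromosome 9, 58823412 to 58863175) was at 21.4, 22 and 19.4 CPM on Ctrl beads and 24.8, 28.4 and 26.6 CPM in supernatant, and at 15.9, 18.6 and 15.8 on the beads against 22.8, 28 and 29.1 CPM in Stat3KO. It was lower on the beads in both genotypes, with log2 fold changes of -0.38 (SE 0.112, adjusted p = 0.0267) and -0.72 (SE 0.149, adjusted p = 0.00725). The Ctrl call was lost without a filter on low counts (adjusted p = 0.0713) and without Ctrl bead replicate 2 or 3 or supernatant replicate 2 or 3 (adjusted p = 0.0698 to 0.103). With all libraries and the pool as a block it was kept (-0.38, adjusted p = 0.00589). Hcn2 (ENSMUSG00000020331; chromosome 10, 79716634 to 79736108), the highest of the 3 HCN genes per kilobase, was at 152, 97.2 and 92 CPM on Ctrl beads and 140.5, 144 and 140.0 CPM in supernatant, and at 86.5, 90.6 and 75.9 on the beads against 121, 123 and 124 CPM in Stat3KO. Ctrl bead replicate 1 lay above the supernatant and the other 2 below it, so Hcn2 did not pass in Ctrl (-0.34 (SE 0.195, adjusted p = 0.193)) but did in Stat3KO (-0.59 (SE 0.118, adjusted p = 0.00627)). With the pool as a block Hcn2 was lower in Ctrl too, at -0.38 (adjusted p = 0.0267). Hcn3 was higher on the beads in Ctrl, at 27.5, 29.8 and 28.5 against 19, 17.5 and 16.5 CPM (0.67 (SE 0.107, adjusted p = 0.00214)), and at 21.7, 22 and 15.7 against 17.9, 16 and 13.2 CPM in Stat3KO (0.29 (SE 0.176, adjusted p = 0.234)). Its difference between genotypes did not pass (interaction -0.36, SE 0.214, adjusted p = 1.0). Exons of Pklr on the other strand cover 17.1% of its exon length, and Pklr was at 0.0828 CPM in Ctrl beads.

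**Figure D3:**
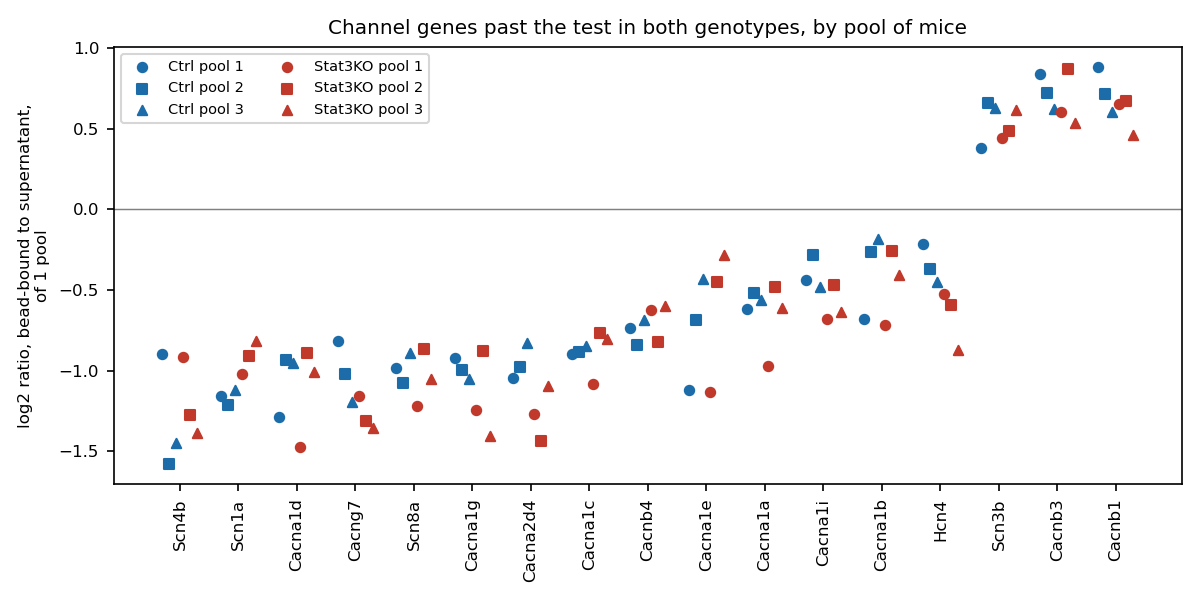
Log2 ratio of bead-bound to supernatant CPM within each of the 6 pools for the 17 genes called in both genotypes, with Ctrl in blue, Stat3KO in red and the marker shape giving the pool number. All 14 lower genes are below 0 and all 3 higher genes above 0 in 6 of 6 pools. The genes were picked by the tests on these same libraries.

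Genes that lie side by side differed. Scn4b and Scn2b are neighbours on chromosome 9, and their log2 fold changes in Ctrl were -1.33 and 0.15. Cacng7 and Cacng8 on chromosome 7 were at -1.02 and 0.63. In the sodium channel cluster of chromosome 2, from Scn3a (start 65457118) to Scn7a (end 66784914), Scn3a, Scn2a, Scn1a, Scn9a and Scn7a were at -0.43, -0.12, -1.20, 0.11 and -0.39. Cacna1c and Cacna2d4, close together on chromosome 6, were both lower (-0.91 and -0.98). Without strand in the libraries, reads of overlapping genes cannot be told apart, and 12 of the 41 genes share exon bases with another gene. Apart from Cacnb4, Hcn3 and Cacna1s (20% with Gm37759, which was at most 0.0152 CPM), the part shared with any 1 other gene was at most 5.86% of exon length.

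Exon length and cell type markers moved with the bead to supernatant difference. Over all tested genes in Ctrl the median log2 fold change went from 0.20 in the shortest of 10 length classes to -0.36 in the longest (9337 bases and over), where 43.6% of genes were lower and 6.22% higher. The longest class held 16 of the tested channel genes, of which 10 were lower and 0 higher. In Stat3KO the longest class had a median of -0.35 with 35.3% lower, and 11 of the 16 channel genes there were lower. The 14 genes lower in both genotypes had a median exon length of 10039.5 bases and the 3 higher genes 4529 bases, against 7947 bases over the 41 channel genes and 3930.5 over all genes tested in Ctrl. In a fit with the pool as a block and offsets for length, 11 genes were higher and 14 lower in Ctrl (29.6% and 27% of all genes), and 5 higher and 16 lower in Stat3KO (25.2% and 23.8%). There Cacna1b (-0.04 in Ctrl and -0.14 in Stat3KO) and, in Ctrl, Cacna1i (-0.07) were not called, while Cacna2d1 was higher in both genotypes (0.40, adjusted p = 0.0019, and 0.34, adjusted p = 0.00383). The other 15 of the 17 genes stayed called in both genotypes, but the differences of several long genes were smaller. Cacna1a went from -0.60 to -0.24 in Ctrl and from -0.72 to -0.37 in Stat3KO, Cacna1e from -0.74 to -0.41 and from -0.67 to -0.30, and Cacna1c from -0.91 to -0.55 and from -0.92 to -0.57. Cacna1d (-0.72), Cacna1g (-0.66), Cacna2d4 (-0.62) and Scn8a (-0.65) were each reduced by over 1.5 times in Ctrl, as were Scn1a (-0.60) and Cacna1i (-0.28) in Stat3KO. Cacng7 and Scn4b, with exons of 2441 and 4982 bases, were at -1.17 and -1.34 in Ctrl and -1.43 and -1.21 in Stat3KO. Cacna2d2, Cacnb2 and Scn9a were higher in Ctrl in this fit (0.20, 0.22 and 0.44), and Cacna2d3 was higher in Stat3KO (0.23, adjusted p = 0.0454).

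**Figure D4:**
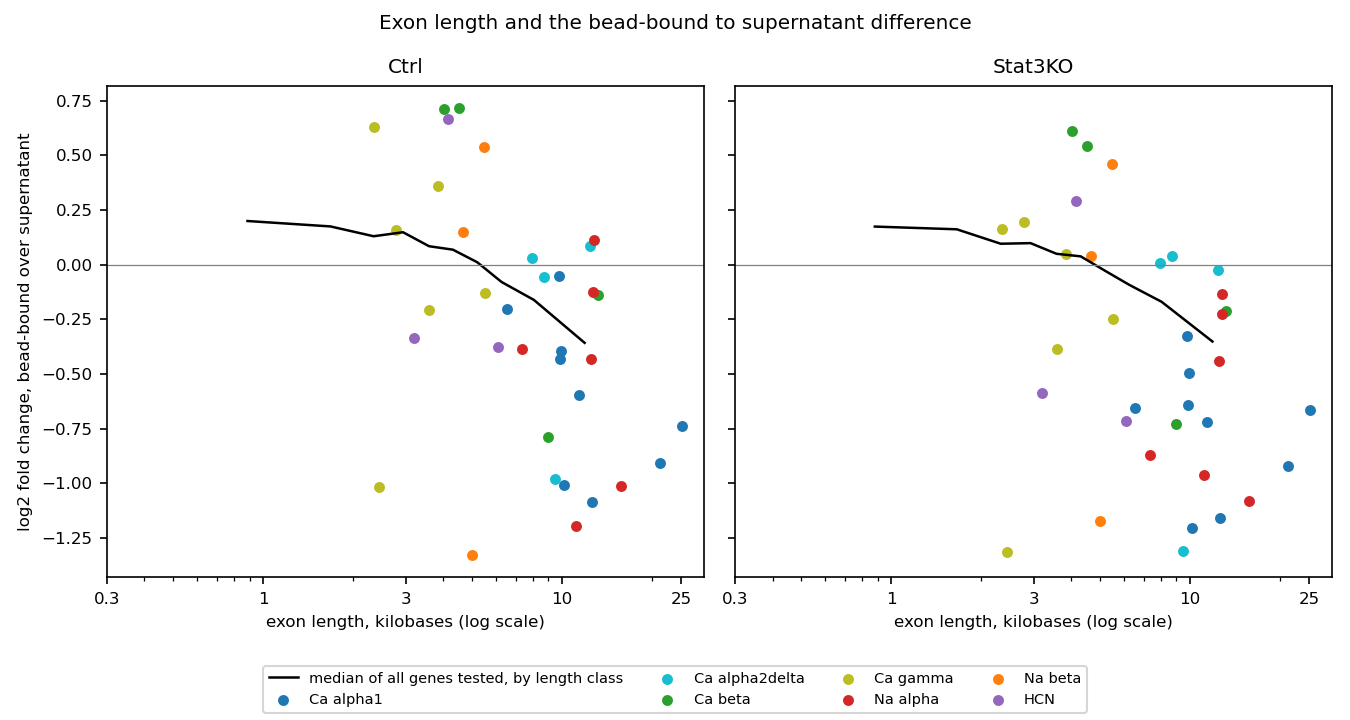
Log2 fold change of bead-bound over supernatant RNA against exon length in kilobases (log axis) for the 35 expressed genes, with the black line joining the median of all tested genes in each of 10 length classes at its median length. The line falls with length, and the short genes Cacng7 and Scn4b lie far below it while Cacnb1, Cacnb3 and Scn3b lie above it.

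Astrocyte markers were lower on the beads (6 of 8 in Ctrl and 8 of 8 in Stat3KO), as were those of oligodendrocytes (9 of 9 in each), their precursors (5 of 6 in each) and microglia (6 and 7 of 8). Of 10 general neuron markers 5 were higher in Ctrl (median 0.33), and 2 were higher and 1 lower in Stat3KO (median 0.11). Markers of LepRb neurons were higher for 8 of 8 genes in each genotype and endothelial markers for 7 and 6 of 8. Those of striatum and cortex were lower for 5 of 10 in Ctrl and 1 of 10 in Stat3KO, and higher for 1 of 10 in each. Summed oligodendrocyte markers ran from 1844 to 3094 CPM on Ctrl beads and from 5484 to 7045 CPM in Ctrl supernatant, and 0 markers of any list were at 0 in all libraries. The part of length and of these cell types in the channel results was not tested beyond the fit with length offsets.

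Proteins that hold or regulate these channels were taken as a list of 35 genes, all of which were tested. In Ctrl 6 were higher (17.1%, against 20.7% of all genes) and 9 lower (25.7%, against 21.2%) on the beads, and in Stat3KO 4 (11.4%, against 14.7%) and 9 (25.7%, against 17.3%). The shares were near those of all genes, and the median log2 fold change was -0.13 in each genotype. Rrad, which encodes a small GTPase that binds calcium channel beta subunits and reduces calcium current, had the largest difference. It was at 24.6, 18.5 and 14.5 CPM on Ctrl beads and 4.55, 2.83 and 3.17 CPM in supernatant (2.44, SE 0.261, adjusted p = 0.000417). In Stat3KO it was at 12, 21 and 18.4 CPM against 3.07, 4.14 and 4.52 CPM (2.09, SE 0.246, adjusted p = 0.000554). Its relative Gem (0.92 in Ctrl and 0.79 in Stat3KO), the calcium channel adaptor Stac (0.80 and 0.81) and Fgf13, a sodium channel-binding growth factor homologue (0.76 and 0.70), were also higher in both genotypes. Lower in both were the scaffolds Ank2 (-0.74 and -0.80) and Ank3 (-0.77 and -0.75), which anchor sodium channels, with the adhesion protein Nfasc (-0.54 and -0.55). So were Fgf11 (-0.84 and -0.87), Unc79 of the NALCN leak channel complex (-0.72 and -0.64), the HCN channel partner Pex5l (-0.85 and -0.75) and Rest, a repressor of neuronal genes that include channel genes (-0.72 and -0.66). In Ctrl alone Calm2 and Fam155a passed as higher and Unc80 and Unc13a as lower, and in Stat3KO alone Sptbn4 and Stac2 passed as lower; 0 of the 35 passed between genotypes in either fraction or in the interaction.

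The promoters of the genes were searched for the palindrome that STAT proteins bind, TTCNNNGAA, since Stat3 is the gene floxed. RefSeq windows from 250 bases before to 50 after the start site (GRCm38.p6) were at hand for 32 of the 41 genes, in 43 windows. The letters occurred in 5 windows of 5 genes (11.6%), against 8.3% of all 32851 windows. The genes were Cacna1c, Cacna1i, Scn2a, Scn2b and Scn9a. In 4 of them the stretch around the match lies outside annotated exons, and it is shown here 5′ to 3′ on the gene's strand with the match in capitals.
Cacna1c, chr6:118758056-118758114 (- strand): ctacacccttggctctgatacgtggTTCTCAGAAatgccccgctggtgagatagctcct
Scn2a, chr2:65668529-65668587 (+ strand): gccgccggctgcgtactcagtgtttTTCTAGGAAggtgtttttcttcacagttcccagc
Scn2b, chr9:45117697-45117755 (+ strand): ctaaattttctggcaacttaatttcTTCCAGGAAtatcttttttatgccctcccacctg
Scn9a, chr2:66635036-66635094 (- strand): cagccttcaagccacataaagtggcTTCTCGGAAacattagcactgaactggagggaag
The match begins 115, 132, 154 and 107 bases before the start site of its window, respectively. The stretches of Cacna1c and Scn2a lie inside the annotated genes (118587240 to 119196418 and 65620771 to 65767447). The start sites of these windows are therefore not the outermost of the gene. In Stat3KO against Ctrl bead-bound RNA these 4 genes and Cacna1i had log2 fold changes of -0.20, -0.37, -0.24, -0.34 and -0.41, and none passed the test with all 3 replicates. With replicates 2 and 3 alone Scn2a, Scn2b, Scn9a and Cacna1i were lower on the beads, as given below. In that fit 14 of 38 channel genes (36.8%) and 5.1% of all genes were lower. Of the 5 genes only Scn2a was called in supernatant with these replicates. A link between the letters and these calls was not tested. Of the 2 parts of the REST-binding element, TTCAGCACC was in 0 of the 43 windows (0.371% of all) and GGACAGCG in 1, that of Cacnb1 (2.33%, against 1.26% of all). Both strands were searched, and a match is a description of the letters only.

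Stat3KO was compared with Ctrl in bead-bound RNA, which asks which transcripts on the tagged ribosomes of LepRb cells differ when Stat3 is floxed. No channel gene passed the test. In edgeR 0 of 38 tested genes were higher and 0 lower, as with DESeq2 and limma-voom, where 0.421% of all genes were higher and 0.0288% lower. At an unadjusted p under 0.05 there were 4, where all genes gave 4.11%, and all 4 had lower levels in Stat3KO. These were Hcn3 (-0.53, 95% interval -0.92 to -0.14), Cacng8 (-0.54, -0.97 to -0.12), Cacna1h (-0.51, -0.97 to -0.06) and Cacna1i (-0.41, -0.73 to -0.09), with adjusted p of 0.846 to 0.999. Cacna1h was at 32, 29.6 and 30.4 CPM in Ctrl and 16.1, 27.9 and 20.5 CPM in Stat3KO, and the levels of the other 3 are given above. In 6 genes, these 4 with Hcn2 and Hcn4, all Stat3KO beads lay below all Ctrl beads, as in 4.09% of all genes, and 0 lay wholly above, as in 4.96%. Over the list, 33 of 38 genes (86.8%) had a log2 fold change below 0, against 51.7% of all genes, with a median of -0.24 against -0.01. The genes share libraries, so their directions are not independent of each other. In the same comparison the median of the cell type markers was -0.33 for LepRb neuron markers (2 of 8 higher and 2 lower), -0.32 for microglia, -0.31 for striatum and cortex, -0.29 for oligodendrocytes, -0.21 for astrocytes and -0.12 for neurons, with 0 called in these other lists. It was -0.29 for oligodendrocyte precursors, -0.17 for tanycytes and ependyma and -0.002 for mural cells. It was above 0 for thalamus (0.06), endothelium (0.12) and skeletal muscle (0.14) markers, and 0 were called in these 3 lists or the 3 before them. Their part in the result was not tested. By class the median was -0.44 for HCN channels, -0.29 for calcium alpha1, -0.26 for alpha2delta, -0.25 for sodium alpha, -0.24 for sodium beta, -0.14 for gamma and -0.02 for calcium beta subunits. The 95% intervals of the expressed genes reached from -1.27 to 0.55 at their widest.

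In supernatant, the RNA of the tissue after the pull-down, the same comparison gave 0 of 39 genes higher and 0 lower with each of the 3 tools (0% of all genes higher and 0.0108% lower in edgeR). At an unadjusted p under 0.05 there were 3, where all genes gave 6.2%: Cacna1e (-0.42), Cacna1i (-0.22) and Hcn2 (-0.21). The groups were apart, Stat3KO lower, for Cacna1a, Cacna1b, Cacna1e, Cacna1i, Scn2b and Hcn2 (6 genes, where 6.11% of all genes did so), and higher for 0 (6.6%). Here 29 of 39 genes (74.4%) were below 0, against 50.7% of all genes, with a median of -0.13. The direct test of whether the bead to supernatant difference itself differed between genotypes called 0 of 40 genes, and 0 had an unadjusted p under 0.05 (2.12% of all genes). It called 0 with DESeq2 and limma-voom too, and 0.193% of all genes were higher and 0.0105% lower.

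The comparison of genotypes depended on replicate 1. A fit without it has n = 2 pools per group. In Ctrl replicate 1 was the lowest library for 21 of the 35 expressed genes on the beads and for 21 in supernatant (43.3% of all genes in each). Leaving it out raises the Ctrl mean of those genes. With replicates 2 and 3 alone, 14 of 38 channel genes were lower and 0 higher in Stat3KO beads (36.8% lower, against 5.1% of all genes lower and 1.56% higher). In supernatant 10 of 38 were lower and 0 higher (26.3%, against 4.22% lower and 1.07% higher of all genes). The genes lower on the beads were the calcium channel pores Cacna1e (-0.45) and Cacna1i (-0.43), the alpha2delta genes Cacna2d1 (-0.59), Cacna2d2 (-0.42) and Cacna2d3 (-0.38), and the gamma genes Cacng5 (-0.49) and Cacng8 (-0.67). The sodium channel genes were Scn2a (-0.56), Scn3a (-0.42), Scn9a (-0.52), Scn2b (-0.38), Scn3b (-0.50) and Scn4b (-0.59), and the HCN gene was Hcn3 (-0.64). In supernatant they were Cacna1e (-0.63), Cacna2d1 (-0.41), Cacna2d2 (-0.39), Cacna2d3 (-0.56), Cacng3 (-0.51), Scn2a (-0.48), Scn3a (-0.37), Scn8a (-0.26), Scn3b (-0.39) and Scn4b (-0.76). Of these, 8 genes were lower in both fractions, 57.1% of the bead list and 80% of the supernatant list, and the fractions come from the same pools.

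In Scn2a, for instance, replicate 1 of Ctrl (85 CPM on the beads) was below replicates 2 and 3 of Ctrl and below all Stat3KO bead libraries, and Cacna2d1 (89.6 CPM in the same library) showed the same pattern. Leaving out any 1 library at a time, replicate 1 included, gave 0 calls in either fraction. The interaction called 0 of 39 genes with replicates 2 and 3 alone, and 6 had an unadjusted p under 0.05 (0.208% of all genes were called higher, 0.0208% lower, and 6.03% had such a p). Some cell type markers moved with these calls. With replicates 2 and 3 alone 8 of 10 markers of striatum and cortex were lower in Stat3KO in each fraction (median -0.76 on the beads and -1.22 in supernatant), as were 4 and 6 of 9 oligodendrocyte markers. Of the 8 markers of LepRb neurons, the tagged cells, 4 were lower and 2 higher on the beads (median -0.68), and 2 were lower and 2 higher in supernatant (median 0.02). In supernatant 4 of 8 astrocyte markers were lower and 1 higher, and 3 of 8 microglia markers were lower. Endothelial and mural markers had 0 calls in either fraction, and 1 of 6 thalamus markers was higher in each. The summed striatum and cortex markers ran from 431 to 539 CPM in Ctrl beads and from 258 to 626 CPM in Stat3KO beads, and from 667 to 826 CPM and from 285 to 817 CPM in supernatant. The highest Stat3KO value was that of replicate 1 in both fractions. Summed LepRb neuron markers ran from 1840 to 1848 CPM in Ctrl beads and from 1703 to 3559 CPM in Stat3KO beads, where replicate 1 was the highest. Summed endothelial markers ran from 58.1 to 141 CPM in Ctrl beads and from 16.4 to 153 CPM in Stat3KO beads. Replicate 1 was the lowest for these in both bead groups. The part of all these cell types in the result was not tested. Of the 35 partner genes 3 were lower on the beads (8.57%) and 4 in supernatant (11.4%) with replicates 2 and 3 alone, and 0 in either fraction with all replicates.

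**Figure D5:**
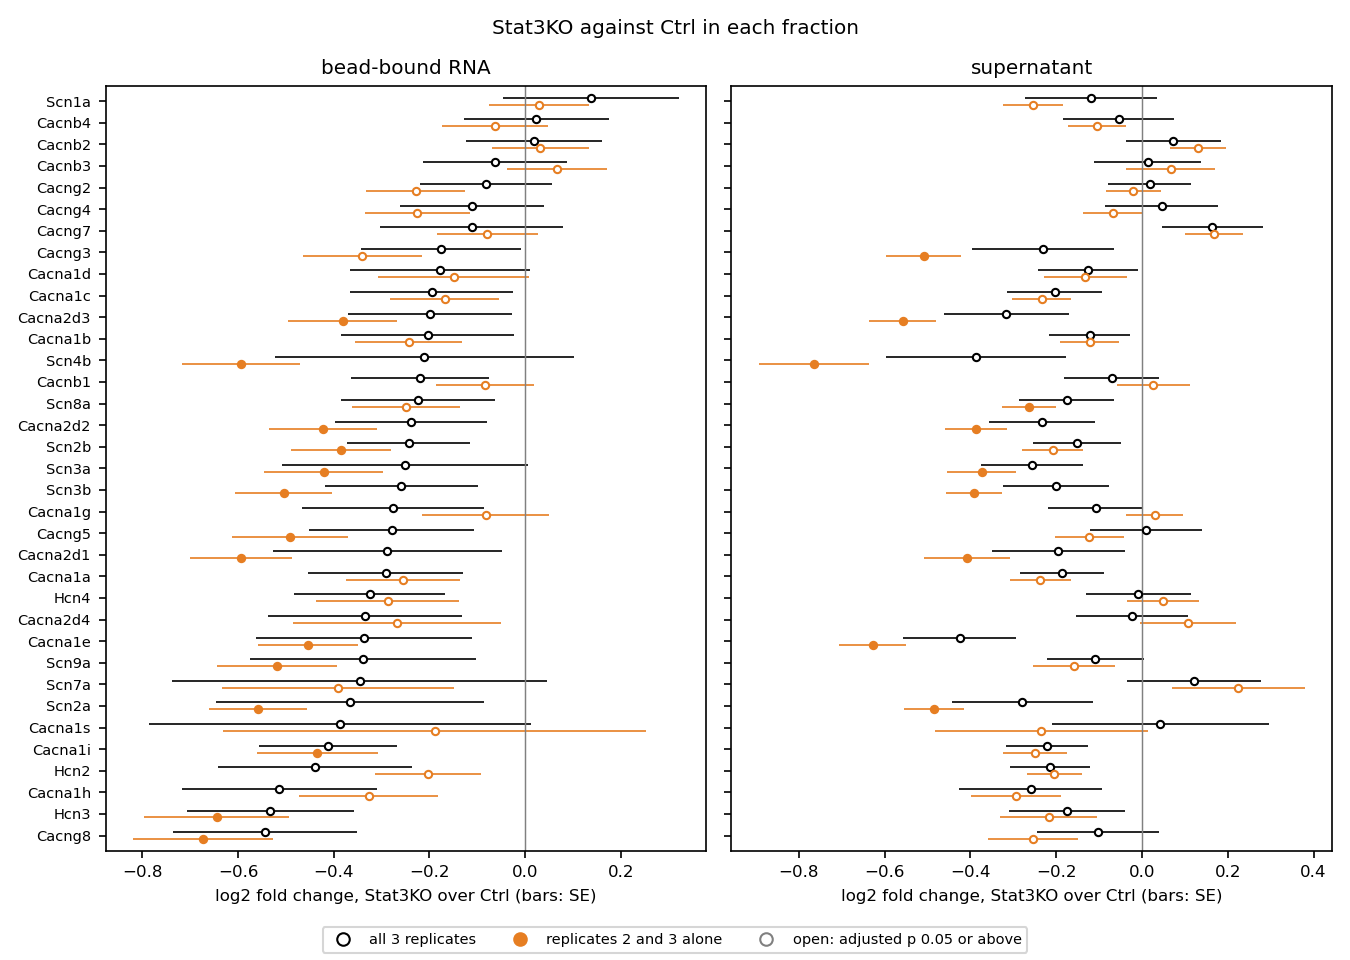
Log2 fold change of Stat3KO over Ctrl with its SE in bead-bound RNA (left) and supernatant (right) for the 35 expressed genes, with all 3 replicates (black) and with replicates 2 and 3 alone (orange), and filled points past the test. No black point is filled, and 14 orange points on the left and 10 on the right are filled, all below 0.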

How the data were processed

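RNA was counted in 12 libraries from 6 pools of mice, in 4 groups of 3. The authors deposited raw whole-number counts per gene with no normalisation. STAR 2.5.3a and mm10 are named in the submitters' processing notes. No source used here gives the counting step, annotation or strand setting, and the TruSeq mRNA v2 kit, per the labels' protocols, is treated as not stranded. GENCODE M21 on GRCm38 matched 52489 of the 52638 entries; 2 are transgenes and 147 were not matched. All sample columns were mapped, and 0 were left over. Without molecular identifiers, read depth bears on counting error alone.

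Tests used edgeR 4.0.16 in R 4.3.3 on all genes: TMM scaling, filterByExpr (minimum count 10, minimum total 15), quasi-likelihood fit, Benjamini-Hochberg adjusted p under 0.05 over all tested genes, 2-sided. The 5 comparisons were genotype in each fraction, fraction in each genotype (6 libraries each) and their interaction (12 libraries). The SE is the log2 fold change divided by the square root of F, and 95% intervals use the fit's degrees of freedom. Exon length is the union of a gene's exons. Alternatives were DESeq2 1.42.0, limma-voom (limma 3.58.1), other scalings, no filter, all 12 libraries, blocks, length offsets (medians of log2 CPM in 10 length classes, with prior count 2), replicates 2 and 3 alone and each library left out. Length offsets without a block, for the genotype comparisons, were added after seeing the data. The main fit, DESeq2, limma-voom and the block, alone and with length offsets, were tested on simulated data. The other alternatives, replicates 2 and 3 alone among them, were not.

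Values in every library are given for genes called in bead against supernatant in both genotypes or in any genotype comparison, and for the most abundant reported gene per kilobase of each class. Of the 44 genes the rule gave, 3 are not reported here and enter no count of channel genes. That these families are described, and the partner and marker lists, was chosen with earlier results of these data known; membership follows the symbol. Nothing in the labels says more of the pools than their number, so p-values measure the spread between pools. Bead and supernatant libraries of 1 number and genotype come from 1 pool, and their deviations from the group means correlated in all 6 pools (r 0.204 to 0.375, across genes). Same-numbered pools of the genotypes did not pair. No batch or date is given for single libraries.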

Additional observations from a re-analysis of the deposited data

How the results depend on the processing

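For the 17 genes called in both genotypes, 34 results were refitted under 510 alternatives: 478 kept their direction and their side of the threshold, 32 fell short of it (26 of them with 1 library left out) and 0 changed direction. The counts of channel genes higher and lower on the beads moved more. With 1 library left out they ran from 4 to 6 higher and 10 to 15 lower in Ctrl, and from 1 to 4 higher and 13 to 18 lower in Stat3KO. There the higher count was 1 without Stat3KO supernatant replicate 2 and 2 without bead replicate 3 or supernatant replicate 3. With replicates 2 and 3 alone 8 were higher and 16 lower in Ctrl and 4 and 19 in Stat3KO.

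With the pool as a replicate block the counts were 6 higher and 17 lower in Ctrl (29.4% and 29% of all genes) and 4 and 19 in Stat3KO (23.7% and 26%). With length offsets added they were 11 and 14 in Ctrl and 5 and 16 in Stat3KO, against 29.6% and 27%, and 25.2% and 23.8%, of all genes. The blocked calls that differ are named with the genes above for Cacng2, Cacng4, Cacng5, Scn3a and Hcn2, and the block without offsets changed no other call. Between genotypes the numbers do not pair the pools: r between same-numbered libraries was -0.08 to 0.14, and the fit with the number as a block called 0 channel genes, as the main fit did.

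The genotype comparisons gave 0 calls in each direction with 1 library left out and in every other alternative but replicates 2 and 3 alone, which gave 14 lower on the beads and 10 in supernatant; the cause was not tested. The interaction gave 0 in all. Library totals in place of TMM left 35 expressed genes.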
